A study of Mus musculus with 24 samples.

Results

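The response of granulocytic, or polymorphonuclear, myeloid-derived suppressor cells (PMN-MDSCs) to lymphodepletion in mice labelled interleukin-6 (IL-6) knockout was described from 6 of the 24 RNA-seq libraries of the series. They were 3 libraries from lymphodepleted (LD) and 3 from untreated (UT) mice, chosen by their titles. Of 23479 genes in the deposited table, 11424 had 10 or more normalized counts in at least 3 of these 6 libraries, and these were tested. A normalized count is a read count divided by a size factor of its library.

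All mice carried established B16 tumours, a transplantable melanoma line of C57BL/6 origin, and the cells were sorted from the spleen. The KO-labelled LD group received cyclophosphamide and fludarabine, drugs that kill lymphocytes and dividing marrow cells, and spleens were taken 7 days after treatment. The KO-labelled UT group received neither drug. Both were of the strain B6.129S2-Il6tm1Kopf/J, which carries a targeted Il6 allele in its germline, so that any host cell has it, while the tumour cells are a separate line. The WT-labelled LD and UT groups, 3 libraries each, were C57BL/6 mice with the same tumour and treatments. They set the response beside another genotype label, and they also enter the error of each gene in the main fit. The design text gives 3 mice per group except for the KO-labelled LD group, for which it gives no number.

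MDSCs are immature myeloid cells that build up in tumour-bearing hosts and restrain T cells, and the PMN subset belongs to the neutrophil lineage. Neutrophils mature in order through dividing precursors that make primary granule proteins such as myeloperoxidase, then cells that load secondary and tertiary granules with lactoferrin and gelatinase, and last non-dividing cells that carry CXCR2 and the G-CSF receptor. IL-6 acts through its receptor, gp130 and STAT3, and STAT3 takes part in emergency granulopoiesis. Lymphodepleting drugs empty the spleen of B and T cells and are followed by a wave of new granulocytes as the marrow recovers.

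The 6 libraries held 4874429 to 9999731 reads. UT library 1 was the shallow one, with 4874429 reads against at least 8513785 in each of the other 5, so that 1 read there counted as 2.47 normalized counts. The precursor ribosomal RNA Rn45s took 2.94 to 13.7% of the reads, the highest share being that of the same library. On the first principal component, which held 36.6% of the variance, LD library 2 stood at -95.5, the other LD libraries at -11.4 and -14.6, and the UT libraries at 57.6, 35.1 and 28.7. On the second, with 25.6%, UT library 3 stood apart at -85.1. Gene list medians are also given without LD library 2 or UT library 1 where that moved them by over 1.5 times.

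Transcripts that define neutrophils were abundant in every library. Csf3r, the G-CSF receptor, had 68663, 33432 and 72126 normalized counts in the LD libraries, against 84277, 55624 and 67756 in the UT libraries. S100a9, a subunit of calprotectin, had 19729, 40737 and 29989 in the LD libraries, against 35594, 28440 and 38804 in the UT libraries. Ly6g, the usual surface marker of these cells, was not analysed here. Il6 itself had 131, 64.5 and 203 normalized counts in the KO-labelled LD libraries and 158, 153 and 220 in the UT libraries, while the WT-labelled libraries had 0 in all 3 LD and 0, 7.20 and 0 in the UT ones. Reads summed over all of Il6 do not separate transcripts of a disrupted allele from intact ones. The higher level stood in the mice labelled as knockouts, so the groups are called KO-labelled and WT-labelled throughout. The difference of Il6 between LD and UT in KO-labelled cells was -0.54 ± 0.89 on the log2 scale (limma, adjusted p = 0.896).

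After lymphodepletion, the genes that passed the test in KO-labelled PMN-MDSC libraries were all lower, and they included B cell genes and 2 of 9 MHC class II genes. Of 11424 genes, 26 were called (0.228%, limma on log2(normalized count + 1), Benjamini-Hochberg adjusted p under 0.05), none of them higher in LD. Of the 26, 5 were on the B cell list, 2 on the MHC class II list and 1 each on the IL-6 and STAT3 list and the unfolded protein response list. No gene (0%) was called higher, while 493 genes (4.32%) were higher and 700 (6.13%) lower at an unadjusted p under 0.05. On the recovered reads edgeR called 24 genes (0.21%), of which 0 (0%) were higher. DESeq2 called 253 genes (2.22%), of which 91 (0.797%) were higher and 162 (1.42%) lower. The median change of all genes tested was -0.05, on the log2 scale used for each change below. The LD and UT libraries did not overlap for 746 genes that were higher (6.53%) and 1122 that were lower (9.82%). The count depends on single libraries: it was 0 without UT library 2, 7 without UT library 1, 13 without LD library 2 and 17 without LD library 3. In the same fit the response of WT-labelled cells had 1393 called genes (12.2%), of which 541 (4.74%) were higher and 852 (7.46%) lower.

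Cd22, an inhibitory receptor of B cells that binds sialic acid (GRCm38 chromosome 7, 30865404 to 30880342), had the smallest adjusted p. It had 42.8, 38.2 and 42.3 normalized counts in the LD libraries, against 618, 748 and 393 in the UT libraries. The LD libraries lay close together and an order of magnitude under the lowest UT library. The log2 change was -3.75 ± 0.43 (SE, n = 3 libraries a group), or 13.5-fold lower (limma, adjusted p = 0.00311). Here and below, the limma SE is pooled over all 4 PMN-MDSC groups. In the shallow UT library the 618 normalized counts came from 250 reads. In bulk RNA, fewer cells of a type and less RNA per cell cannot be told apart, and the labels describe a sort to high purity.

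The B cell list held 10 genes, all tested, of which 5 fell and none rose (background for lower calls 0.228%). All 10 were lower in every LD library than in any UT library (9.82% of all genes), and their median change was -4.25, from -5.89 to -1.28. Cr2, the complement receptor CD21 of mature B cells (chromosome 1, 195136811 to 195176880), had 26.5, 4.24 and 34.1 normalized counts in LD, against 448, 555 and 253 in UT (-4.54 ± 0.65, adjusted p = 0.00798, limma). Fcer2a, the low-affinity IgE receptor CD23 (chromosome 8, 3680280 to 3694174), had 1.02, 6.79 and 0 in LD, against 225, 170 and 83.1 in UT (-5.89 ± 0.98, adjusted p = 0.0214, limma). Both are genes of mature B cells, and Fcer2a was near 0 in the LD libraries. For Fcer2a, as for Blk below, no LD value reached 10. Such a gene passed the filter through the UT libraries alone, which fixed its lack of overlap in advance.

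Genes of B cell signalling and identity followed. Blk, a Src-family kinase of B cells (chromosome 14, 63372837 to 63417187), had 8.15, 0.849 and 7.22 normalized counts in LD, against 153, 240 and 78.2 in UT (-4.79 ± 0.72, adjusted p = 0.0102, limma). Ebf1, a transcription factor required for the B lineage (chromosome 11, 44618100 to 45008096), had 21.4, 5.94 and 5.16 in LD, against 200, 228 and 76.2 in UT (-3.95 ± 0.64, adjusted p = 0.0175, limma). In both, LD library 1 was the highest of its group, and UT library 2 the highest of all. The members Cd79a, Cd79b, Ms4a1, Pax5 and Bank1 did not overlap between the groups either but missed the threshold, at adjusted p from 0.0801 for Pax5 to 0.355 for Cd79b.

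**Figure D1:**
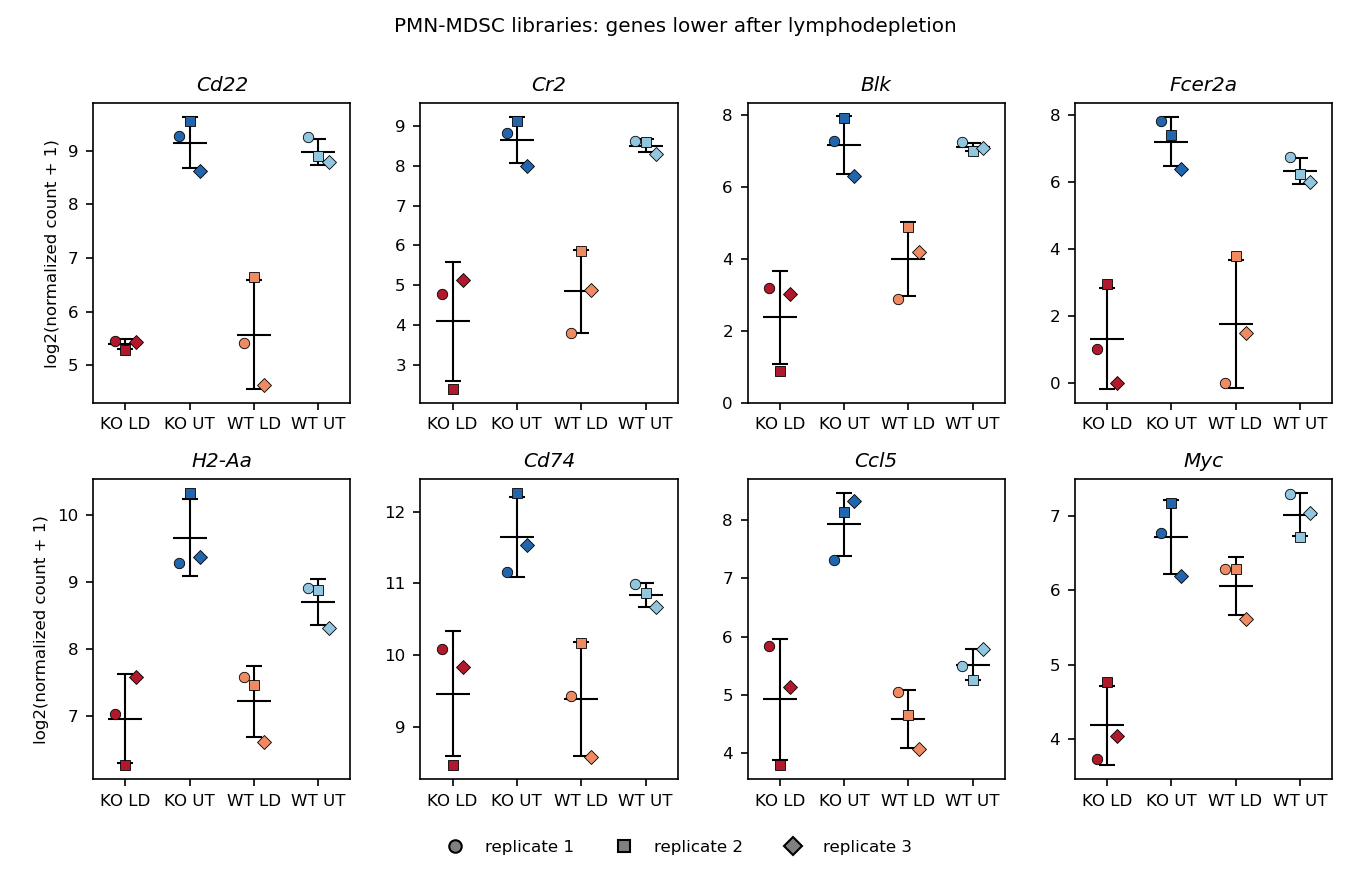
Normalized counts, as log2(count + 1), of 8 genes called lower in KO-labelled LD libraries, in each PMN-MDSC library; symbols mark replicates, the dash and bar the mean ± SD of 3 libraries. Each KO LD library lies under each KO UT library in all 8 panels, and Ccl5 is higher in KO UT than in WT UT libraries.

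Summed over the B cell list, the level was 589, 352 and 332 normalized counts in the LD libraries, against 2777, 3374 and 1797 in the UT libraries. The highest LD library was thus under the lowest UT library. Without a library the number of called B cell genes changed: it was 0 without UT library 1 or UT library 2, 3 without LD library 2 and 2 without LD library 3. The median change of the list stayed between -4.65 and -3.69 over the 6 fits that left out 1 library each.

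Markers of other lymphocytes were low and had lower medians in LD, but no member was called. Of 12 T cell genes, 9 were tested. Of these, 4 did not overlap and were lower (9.82% of all genes), with a median of -2.08, which was -0.86 without LD library 2. Their summed level was 263, 193 and 323 in LD, against 497, 1039 and 671 in UT. Cd8a, the CD8 alpha chain of cytotoxic T cells, had 0, 5.94 and 0 normalized counts in LD, against 37.1, 55.4 and 43.5 in UT (-4.58 ± 1.07, adjusted p = 0.119, limma). It passed the filter through the UT libraries alone, so its lack of overlap was fixed in advance. Lck, the Src-family kinase of T cells, had 103, 64.5 and 69.2 normalized counts in LD, against 109, 195 and 173 in UT, groups that just fail to touch (-0.99 ± 0.45, adjusted p = 0.461, limma). Of 9 NK cell genes, 4 did not overlap and were lower (9.82% of all genes), with a median of -1.63, and the summed level was 687, 376 and 566 in LD, against 717, 2449 and 2502 in UT. UT library 1 lay beside the LD libraries in that sum and far under the other UT libraries, so the spread of NK transcripts within the UT group was as wide as the gap between the groups. Gzma, a granule protease of NK and cytotoxic T cells, had 112, 93.4 and 176 in LD, against 101, 537 and 551 in UT (-1.33 ± 0.54, adjusted p = 0.388, limma).

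Several called genes outside the lists are known from lymphocytes. Chst3, which sulfates chondroitin (chromosome 10, 60181527 to 60222114), had the largest fall: 0, 3.40 and 7.22 normalized counts in LD, against 200, 264 and 144 in UT (-5.90 ± 0.81, adjusted p = 0.00719, limma). S1pr1, the sphingosine-1-phosphate receptor that lets lymphocytes leave lymphoid organs, had 33.6, 8.49 and 18.6 in LD, against 124, 216 and 190 in UT (-3.22 ± 0.56, adjusted p = 0.0289, limma). Ikzf3, the transcription factor Aiolos of the lymphoid lineage, had 251, 121 and 258 in LD, against 650, 1154 and 839 in UT (-2.10 ± 0.32, adjusted p = 0.0107, limma). The GTPases Gimap1 and Gimap6, known for lymphocyte survival, changed by -3.30 ± 0.53 and -2.80 ± 0.50 on the log2 scale. Dtx1, a regulator of Notch signalling, changed by -3.23 ± 0.54, and Aff3, a nuclear protein of lymphoid cells, by -2.44 ± 0.44. Ccl5, a chemokine made by T and NK cells, had 56.1, 12.7 and 34.1 in LD, against 158, 283 and 321 in UT (-3.02 ± 0.56, adjusted p = 0.0357, limma).

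The remaining called genes have broader expression. Itpr3, a calcium channel of the endoplasmic reticulum, had 184, 118 and 128 normalized counts in LD, against 529, 803 and 687 in UT (-2.23 ± 0.27, adjusted p = 0.00439, limma). Ablim1, an actin-binding protein, had 73.4, 59.4 and 98.1 in LD, against 433, 621 and 377 in UT (-2.61 ± 0.35, adjusted p = 0.00719, limma). Both groups were tight, and these genes with Cd22, Chst3, H2-Aa, Ikzf3 and Rplp1 stayed called in 5 of the 6 fits that left out a library, and the other 19 in 0 to 4 of them. Snn, a small membrane protein, changed by -4.33 ± 0.63, and Dnase1l3, a secreted DNase of macrophages and dendritic cells, by -4.01 ± 0.69. Rplp1, of the large ribosomal subunit, had 458, 321 and 531 normalized counts in LD, against 1251, 1447 and 1090 in UT (-1.55 ± 0.22, adjusted p = 0.00719, limma). Rpl27a of the same subunit changed by -1.54 ± 0.29, and Ifi203, an interferon-inducible gene, by -1.73 ± 0.33.

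Of the MHC class II list, which presents peptides to CD4 T cells, 2 of 9 genes fell (0.228% of all genes), none rose, 5 of 9 did not overlap and were lower (9.82% of all genes), and the median was -2.10. Without 1 library the number that fell was 0 to 2, with 0 when UT library 2 was left out, and Cd74 stayed called in 1 of the 6 fits. H2-Aa, the alpha chain of I-A (chromosome 17, 34282744 to 34287823), had 129, 75.6 and 190 normalized counts in LD, against 621, 1284 and 664 in UT (-2.71 ± 0.38, adjusted p = 0.00719, limma). Cd74, the invariant chain that fills the class II groove until peptide loading, had 1086, 352 and 911 in LD, against 2290, 4905 and 2968 in UT (-2.19 ± 0.42, adjusted p = 0.0494, limma). LD library 2 was the lowest for both and UT library 2 the highest. H2-Ob, which tempers peptide loading in B cells and was not on the list, changed by -3.53 ± 0.64 (adjusted p = 0.0327, limma). Ciita, the master activator of class II genes, had 222, 59.4 and 152 in LD, against 504, 873 and 592 in UT without passing the test (-2.33 ± 0.54, adjusted p = 0.119, limma), and the co-stimulatory ligand Cd80 was at 0.07 ± 0.36. B cells, dendritic cells and macrophages all carry class II. Of 8 dendritic cell genes tested, 3 did not overlap and were lower (9.82% of all genes), none was called, and the list summed to 2666, 1166 and 2277 in LD, against 3180, 3598 and 2647 in UT. Of 12 red pulp macrophage genes, 3 did not overlap and were lower (9.82% of all genes), none was called, and the list summed to 4511, 3376 and 4927 in LD, against 6288, 4491 and 6220 in UT. The LD and UT sums of both lists overlapped. Their part in the class II values was not tested.

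The upstream 150 bases of 3 genes of these lists that fell together are shown to let their letters be read beside their values (RefSeq, GRCm38.p6, all on the minus strand, 5′ to 3′, ending at the base before a listed transcription start). The start listed for Cr2 lies inside the span of its gene models given above, so other models of Cr2 begin further upstream. Capitals mark the Y box CTGATTGG, the inverted CCAAT element of class II promoters.
H2-Aa, chr17:34287824-34287973: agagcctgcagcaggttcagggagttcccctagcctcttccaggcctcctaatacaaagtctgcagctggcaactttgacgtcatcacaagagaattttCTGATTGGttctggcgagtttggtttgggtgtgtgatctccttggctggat
Cr2, chr1:195176720-195176869: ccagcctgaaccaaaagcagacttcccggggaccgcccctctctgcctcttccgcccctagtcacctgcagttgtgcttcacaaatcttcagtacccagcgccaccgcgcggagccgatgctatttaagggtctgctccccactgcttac
Fcer2a, chr8:3694175-3694324: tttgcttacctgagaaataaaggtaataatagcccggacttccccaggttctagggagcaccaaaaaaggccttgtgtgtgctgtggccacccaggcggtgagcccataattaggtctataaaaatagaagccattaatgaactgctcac

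Of the 26 called genes, 17 had a promoter entry. In the 150 bases before the start, on either strand, the Y box stood in 2 of these 17 (11.8%), against 445 of 8544 tested genes with an entry (5.21%) and 999 of all 27025 genes with one (3.7%). It lies 51 to 44 bases before the H2-Aa start. The octamer ATGCAAAT, known from immunoglobulin promoters, was in 1 of 17 (5.88%), against 0.913% of tested genes and 1.17% of all. It was in 0 of the 4 called genes with an entry that were on the B cell or MHC class II list. The shorter CCAAT, which each Y box contains on its other strand, was in 5 of 17 (29.4%), against 31.9% of tested genes. These matches describe the letters only.

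**Figure D2:**
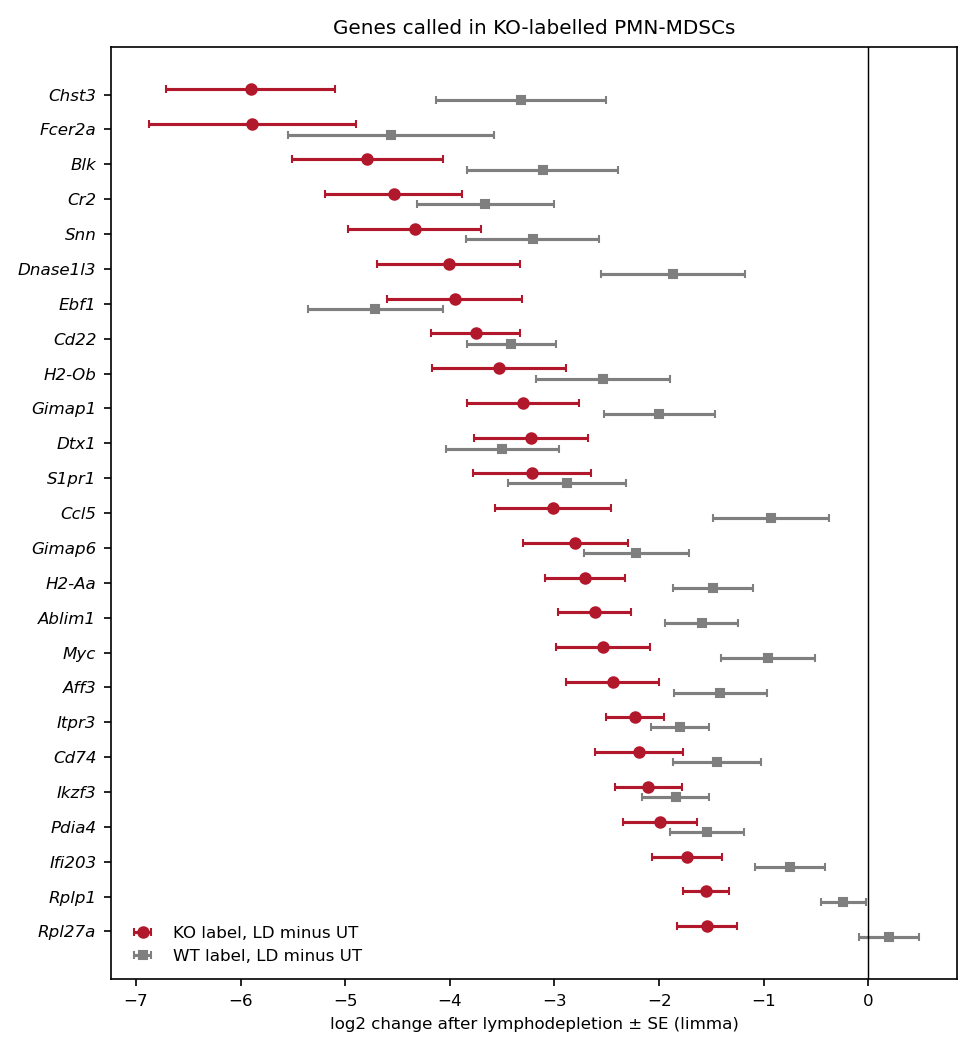
Log2 change ± SE (limma, 3 LD against 3 UT libraries) of 25 of the 26 genes called in KO-labelled PMN-MDSCs, with the change of the same genes in WT-labelled PMN-MDSCs. All 25 lie under 0 in KO-labelled cells, and Rpl27a, at 0.19, is the one above 0 in WT-labelled cells.

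The WT-labelled libraries share no mouse with the KO-labelled ones, so the changes of these 26 genes there were measured separately. The error of each gene was pooled over both labels in 1 fit. Genes chosen with a small error are thus favoured for a call in both, and the count of calls is not separate support. In WT-labelled cells 19 of the 26 fell, against 7.46% of all genes tested. There 25 had a change under 0 and 24 did not overlap and were lower (21.2% of all genes). Cd22 changed by -3.41 ± 0.43 in WT-labelled cells, and the difference between the responses was -0.34 with a 95% interval from -1.63 to 0.94. For Cr2 that difference was -0.88, from -2.85 to 1.09. These intervals are wide, so neither equal nor unequal falls of B cell genes can be read from them. None of the 26 was called in the test of the difference (limma interaction, smallest adjusted p = 0.53), while DESeq2 called Rplp1 (adjusted p = 0.0271) and Rpl27a (adjusted p = 0.0297). The whole B cell list was called lower in WT-labelled cells, 10 of 10 (7.46% of all genes), with a median of -3.72.

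Genes of mitosis had higher values in LD, without a called gene. All 28 genes of the mitosis and spindle list had a change above 0, 16 were higher in every LD than in any UT library (6.53% of all genes), and the median was 1.86, from 0.09 to 3.00. Cenpe, the kinesin that carries chromosomes to the spindle equator, came nearest to the threshold, with 648, 2184 and 565 normalized counts in LD, against 101, 274 and 260 in UT (2.26 ± 0.47, adjusted p = 0.0755, limma). Mki67, the proliferation marker Ki-67, had 2262, 9344 and 2294 in LD, against 178, 1488 and 2700 in UT (2.03 ± 0.79, adjusted p = 0.365, limma). Top2a, the topoisomerase of dividing cells, had 804, 3291 and 727 in LD, against 161, 463 and 717 in UT (1.72 ± 0.58, adjusted p = 0.266, limma). In all 3 genes LD library 2 was far above its group, UT library 1 was the lowest of the 6, and for Mki67 UT library 3 exceeded both other LD libraries.

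The mitosis list summed to 10238, 31864 and 9854 in LD, against 4488, 6331 and 8743 in UT. The groups did not overlap, but LD libraries 1 and 3 were only just above UT library 3. The median change of the list was 1.08 without LD library 2 and 1.15 without UT library 1. Among genes with the smallest p on the higher side, none called, Dlgap5, a spindle protein, had 182, 519 and 150 in LD, against 2.47, 56.4 and 36.6 in UT (3.63 ± 0.83, adjusted p = 0.113, limma). E2f7, a repressor of the E2F family that peaks in dividing cells, had 122, 258 and 57.8 in LD, against 22.3, 22.2 and 21.8 in UT (2.42 ± 0.55, adjusted p = 0.111, limma). Both had LD library 2 highest, and neither overlapped. The mitotic kinesin Kif4 stood at 2.11 ± 0.49 and the DNA glycosylase Neil3 at 1.90 ± 0.42. Spint2, a serine protease inhibitor, had 241, 233 and 207 in LD, against 74.2, 86.6 and 70.3 in UT, evenly in all libraries (1.55 ± 0.33, adjusted p = 0.0801, limma). Ctdspl, a phosphatase of the SCP family, stood at 2.47 ± 0.52 and Frrs1, a ferric reductase, at 0.99 ± 0.24. Adpgk, an ADP-dependent glucokinase, had 10644, 20954 and 7980 in LD, against 1694, 3223 and 5508 in UT (1.96 ± 0.42, adjusted p = 0.085, limma). Tbc1d24 stood at 2.83 ± 0.63, Nos1ap at 1.26 ± 0.29 and the adenylyl cyclase Adcy9 at 1.13 ± 0.26. Kif23 had the smallest value of the mitosis list, at 0.09 ± 0.21 and 2014 to 3029 counts in all 6 libraries.

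Genes of DNA replication and nucleotide synthesis had a smaller median. Of 25 tested, 20 were above 0, 4 did not overlap and were higher (6.53% of all genes), 1 did not overlap and was lower (9.82% of all genes), and the median was 0.74. It was 0.31 without LD library 2 and 0.23 without UT library 1. Pcna, the sliding clamp of replication, had 206, 288 and 302 normalized counts in LD, against 178, 360 and 304 in UT (-0.04 ± 0.34, adjusted p = 0.99, limma). Mcm4, of the replicative helicase, had 315, 273 and 237, against 252, 366 and 147 (0.19 ± 0.31, adjusted p = 0.888, limma). Both overlapped fully. Ccne1, cyclin E1 of the G1 to S step, was lower in all LD libraries, 15.3, 21.2 and 14.4 against 29.7, 36.3 and 30.7 in UT, at low counts (-0.90 ± 0.55, adjusted p = 0.629, limma).

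**Figure D3:**
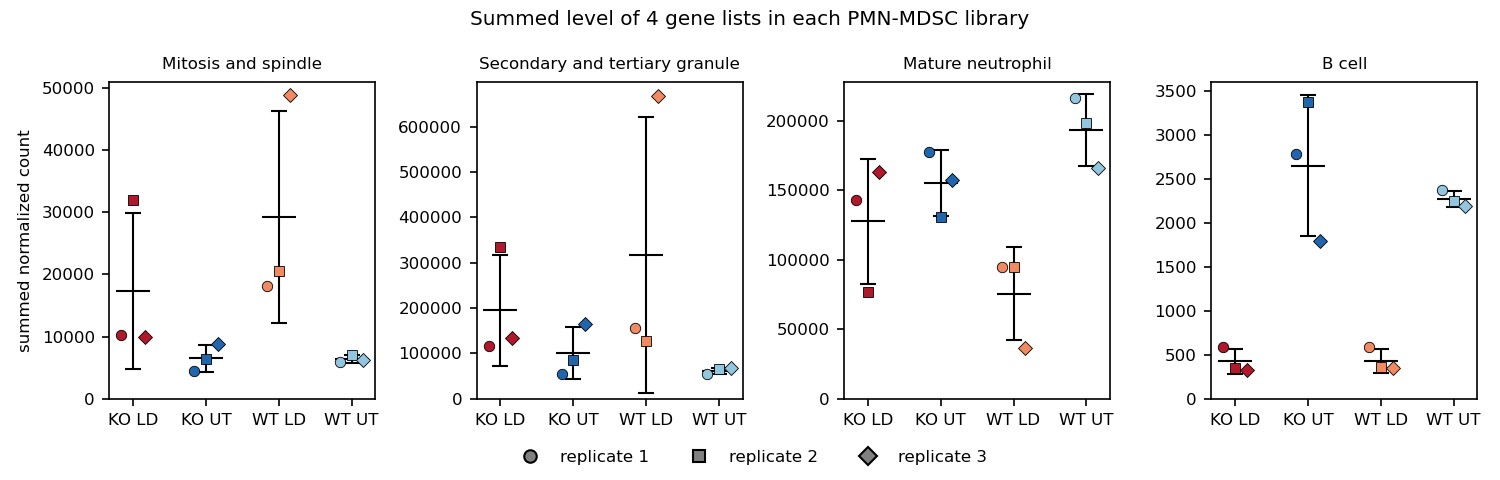
Summed normalized count of 4 gene lists in each PMN-MDSC library, with mean ± SD of 3 libraries. KO LD replicate 2 has the highest mitosis and granule sums and the lowest mature neutrophil sum of the 6 KO libraries, while the B cell sums of the KO LD and KO UT groups do not overlap.

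The sum of the secondary and tertiary granule list had the same highest and lowest libraries as that of the mitosis list. Of the 18 secondary and tertiary granule genes, 17 had a change above 0, but only Itgb2l did not overlap (6.53% of all genes), none was called, and the median was 1.24. Ltf, lactoferrin, had 25259, 99939 and 30140 normalized counts in LD, against 2539, 14464 and 38152 in UT (1.92 ± 0.85, adjusted p = 0.441, limma). Ngp, a neutrophil granule protein, had 21215, 91758 and 29379 in LD, against 2413, 12932 and 36723 in UT (1.88 ± 0.87, adjusted p = 0.474, limma). Again LD library 2 was the highest and UT library 1 the lowest, and UT library 3 was above both other LD libraries. The list summed to 115700, 335497 and 133991 in LD, against 55077, 84748 and 164925 in UT. Its median was 0.69 without LD library 2 and 0.63 without UT library 1. Mmp8, neutrophil collagenase, was at 0.38 ± 0.26, and Mmp9, gelatinase, at -0.27 ± 0.31.

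Genes of primary granules and precursors gave a median of 1.06 over 11 tested, which was 0.44 without LD library 2 and 0.50 without UT library 1. Of the 11, 8 were above 0 and 3 under it, and Myb and Cd63, 2 of 11, did not overlap and were higher (6.53% of all genes). Myb, a transcription factor of dividing precursors, had 264, 776 and 272 in LD, against 156, 247 and 201 in UT (0.95 ± 0.36, adjusted p = 0.351, limma). Cebpe, a factor that drives secondary granule genes, had 98.9, 543 and 169 in LD, against 14.8, 73.5 and 295 in UT (1.58 ± 0.90, adjusted p = 0.594, limma). Mpo, myeloperoxidase, had 29.6, 47.5 and 34.1 in LD, against 24.7, 18.1 and 71.3 in UT, a difference smaller than its error (0.18 ± 0.78, adjusted p = 0.968, limma). Elane, neutrophil elastase, did not reach the level needed for testing, at 1.02, 9.34 and 0 in LD, against 2.47, 0 and 6.93 in UT.

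Of 19 genes of mature neutrophils tested, 17 had a change under 0, 3 did not overlap and were lower (9.82% of all genes), none was called, and the median was -0.40. Cxcr2, the chemokine receptor of mature neutrophils, had 4858, 3310 and 6837 normalized counts in LD, against 6886, 5561 and 7095 in UT (-0.44 ± 0.28, adjusted p = 0.644, limma). Il1b, interleukin-1 beta, had 26484, 11522 and 32949 in LD, against 33582, 25780 and 26507 in UT (-0.40 ± 0.59, adjusted p = 0.879, limma). In both, LD library 2 was the lowest of the 6, and the list's median was -0.11 without it and -0.69 without LD library 3. The non-overlapping members were Msrb1, a methionine sulfoxide reductase, at -0.84 ± 0.26, the chemokine Ccl6 at -0.90 ± 0.35, and Selplg, the selectin ligand PSGL-1, at -0.77 ± 0.24. Cxcr4, which holds neutrophils in the marrow, had 2163, 1644 and 2781 in LD, against 2033, 2212 and 1823 in UT (0.09 ± 0.20, adjusted p = 0.928, limma). S100a8 stood at 0.00 ± 0.42 and S100a9 at -0.23 ± 0.47.

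Genes of IL-6 and STAT3 signalling showed 1 called gene among 22 (0.228% of all genes). Of the 22, 4 did not overlap and were lower (9.82% of all genes). Myc, a growth-promoting transcription factor and STAT3 target (chromosome 15, 61985341 to 61990361), had 12.2, 26.3 and 15.5 normalized counts in LD, against 109, 144 and 72.2 in UT (-2.54 ± 0.45, adjusted p = 0.0307, limma). The groups were well apart, although the call held in 2 of 6 fits that left out a library. Of the other members, 17 were under 0 and 4 above, and the median of all 22 was -0.31. It was -0.09 without LD library 2 and -0.19 without UT library 1. Ccnd1, cyclin D1, was at -3.01 ± 0.84 (adjusted p = 0.183, limma), with 21.4, 10.2 and 14.4 in LD, against 54.4, 242 and 150 in UT. Socs3, the feedback inhibitor induced by STAT3, had 2981, 1470 and 4183 in LD, against 8761, 3482 and 4304 in UT, groups that overlapped (-0.95 ± 0.57, adjusted p = 0.615, limma). Stat3 itself was at -0.30 ± 0.22, the receptor Il6ra at -0.24 ± 0.26, and Il6st, which encodes gp130, at -1.10 ± 0.42, with none called.

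Effectors of suppression were mixed, with 9 of 16 tested above 0, none called and a median of 0.06, which lay between -0.11 and 0.08 when 1 library was left out. Cybb, the catalytic subunit of the phagocyte NADPH oxidase, had 4464, 15079 and 5592 in LD, against 1110, 3412 and 6633 in UT (1.30 ± 0.67, adjusted p = 0.534, limma). Nt5e, the ecto-enzyme CD73 that makes adenosine, had 347, 330 and 232 in LD, against 84.1, 165 and 145 in UT, without overlap (1.23 ± 0.34, adjusted p = 0.181, limma). Cd274, the ligand PD-L1, was at -0.57 ± 0.52, Ptgs2, cyclooxygenase-2, at 0.09 ± 0.52 and Arg2 at -0.36 ± 0.37. Nos2, inducible nitric oxide synthase, had at most 27.7 normalized counts in any of the 6 libraries (-2.06 ± 1.38, adjusted p = 0.671, limma). Arg1, arginase 1, was below the level for testing, at 5.10, 0 and 1.03 in LD, against 4.95, 0 and 0 in UT.

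Other programmes were near the median of all genes or under it. Of 25 type I interferon response genes, 1 did not overlap and was lower (9.82% of all genes), Mx1 (-1.33 ± 0.56). None was called, 24 were under 0, and the median was -0.58. That median was -0.32 without LD library 2 and -0.37 without UT library 1. The NF-kB list had a median of -0.17 over 18 genes, immediate early genes -0.27 over 19, p53 targets -0.20 over 16 and the BCL2 family -0.15 over 18, none with a called gene. Without LD library 2 these medians were 0.06, 0.02, 0.05 and -0.06. Over the other 5 fits that left out a library they stayed under 0. Among these genes, Bcl2, an inhibitor of apoptosis, had 178, 127 and 140 in LD, against 198, 362 and 323 in UT, without overlap (-0.95 ± 0.36, adjusted p = 0.348, limma), and Mcl1, on which neutrophil survival depends, was at -0.27 ± 0.39. Of the 14 unfolded protein response genes, Pdia4, a disulfide isomerase, fell (0.228% of all genes), with 65.2, 135 and 155 in LD, against 344, 538 and 474 in UT (-1.99 ± 0.35, adjusted p = 0.0307, limma). Of 18 genes of cholesterol and fatty acid synthesis, Scd1, a fatty acid desaturase, just missed the threshold with 14.3, 9.34 and 11.4 in LD, against 277, 336 and 133 in UT (-4.22 ± 0.82, adjusted p = 0.0509, limma).

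All 18 ribosome biogenesis genes had a change under 0, with a median of -0.68 that was -0.42 without LD library 2, 7 that did not overlap and were lower (9.82% of all genes), and none called. Fbl, the methyltransferase fibrillarin, had 17.3, 17.8 and 65.0 in LD, against 86.5, 162 and 105 in UT (-2.02 ± 0.56, adjusted p = 0.181, limma). Npm1, nucleophosmin, had 467, 349 and 404 in LD, against 470, 1043 and 826 in UT, groups that almost touch (-0.87 ± 0.36, adjusted p = 0.394, limma). In WT-labelled cells the median of these genes was 0.11.

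**Figure D4:**
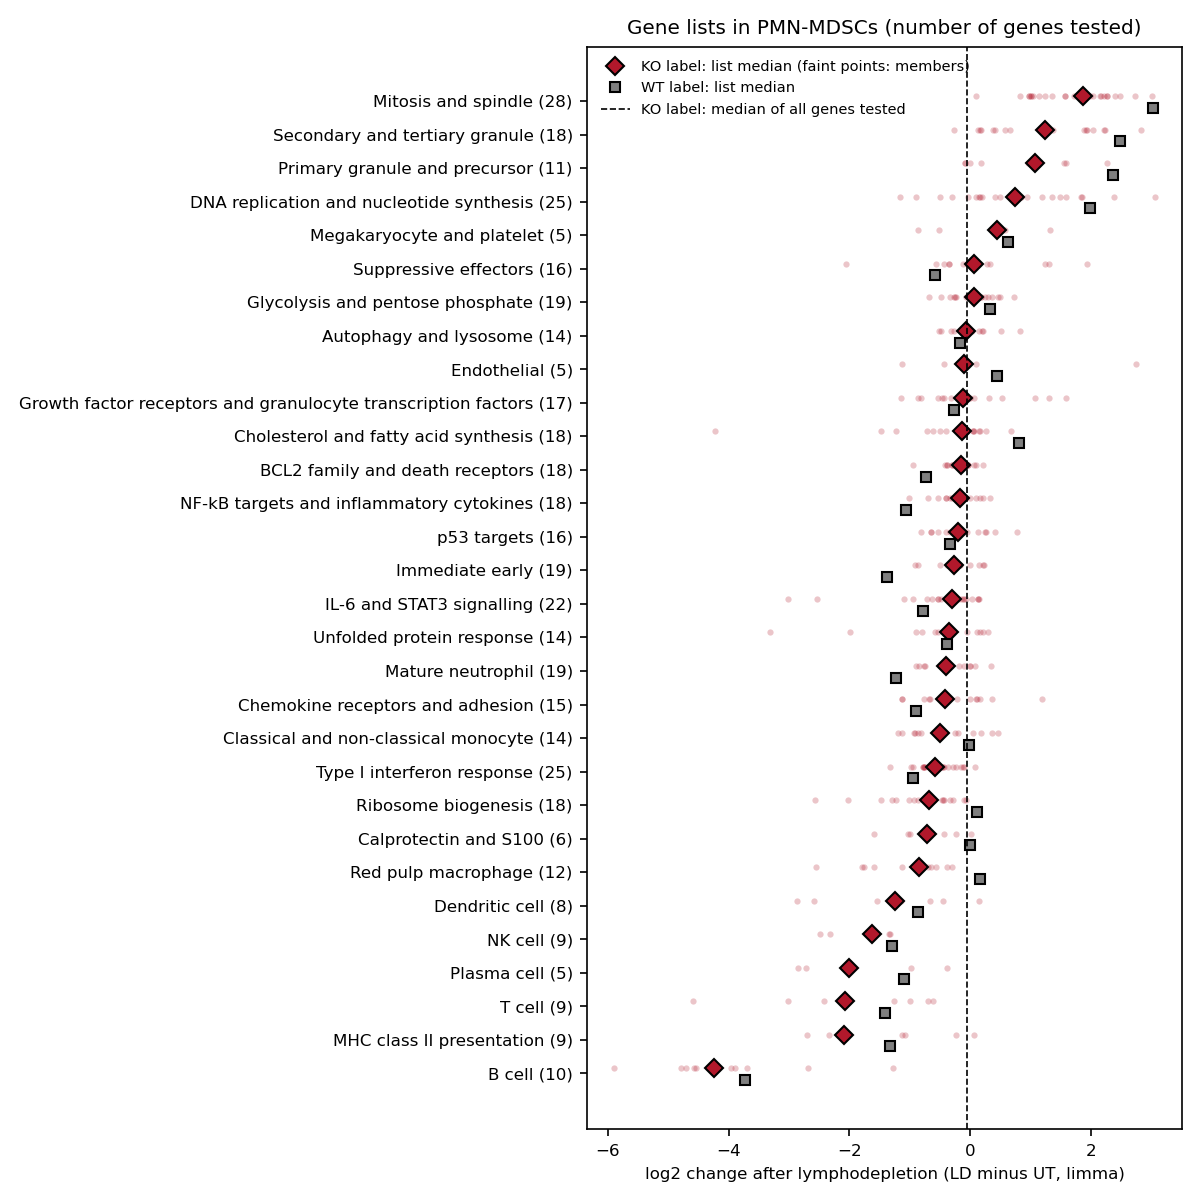
Median log2 change (limma, LD minus UT) of each gene list with 5 or more genes tested, for KO-labelled and WT-labelled PMN-MDSCs; faint points are the members in KO-labelled cells and the dashed line the median of all 11424 genes there. Mitosis and granule lists stand at the top, with larger WT medians, and the B cell list at the bottom in both.

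Beside the WT-labelled response, the list medians of KO-labelled cells had the same sign for dividing, granule and mature neutrophil genes, with values nearer 0. No test of that difference over a list was made. The WT-labelled LD group was uneven as well. Its library 3 had a secondary and tertiary granule sum of 666882, against 156323 and 126704 in the other WT-labelled LD libraries. Its mitosis sum was 48753, against 18163 and 20553, and its mature neutrophil sum 36853, against 94984 and 94586. The WT-labelled medians were not recomputed without that library. In WT-labelled cells 4.74% of all genes were called higher and 7.46% lower, against 0% and 0.228% in KO-labelled cells. Mitosis genes had a median of 1.86 in KO-labelled and 3.01 in WT-labelled cells, where 24 of 28 were called higher and Kif23 lower. Secondary granule genes had 1.24 and 2.47, with 13 of 18 called higher in WT-labelled cells. Mature neutrophil genes had -0.40 and -1.22, with 13 of 19 called lower there. Over all 11424 genes tested, 5136 had a change above 0 in KO-labelled cells and 6288 under 0. Of the 541 genes called higher in WT-labelled cells, 503 (93%) had a change above 0 in KO-labelled cells. There 185 (34.2%) were higher without overlap (6.53% of all genes). Of the 852 called lower in WT-labelled cells, 744 (87.3%) were under 0 in KO-labelled cells. There 184 (21.6%) were lower without overlap (9.82% of all genes). These sets were chosen by their WT-labelled values, so no sizes are compared over them.

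Whether the responses differ was tested gene by gene, as the KO-labelled response minus the WT-labelled one. No gene was called by limma (0%), and 1008 had an unadjusted p under 0.05 (8.82%). Of the other tools, edgeR called 1 gene (0.00875%) and DESeq2 29 (0.254%), of which 22 (0.193%) were under 0. A call in 1 genotype label and not in the other is therefore not read as a difference between them. Nor do 0 calls in limma show that the responses are equal. Mpo had a difference of -6.84 ± 1.10 with an adjusted p of 0.203 in limma, the smallest over all genes tested. It was the gene called by edgeR (adjusted p = 0.0281). Its normalized counts were 29.6, 47.5 and 34.1 in KO-labelled LD libraries and 24.7, 18.1 and 71.3 in UT ones, against 244, 594 and 731 in WT-labelled LD libraries and 7.34, 4.80 and 0 in UT ones. The WT-labelled LD libraries were above all others, and the KO-labelled LD libraries lay within the range of their UT libraries. Elane had the same order, with 103, 47.3 and 141 normalized counts in WT-labelled LD libraries, against 0, 0 and 4.35 in UT ones, but was not tested.

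Rpl6 and Rpl32, ribosomal proteins, and Lman1, a cargo receptor of the secretory path, were among the next genes with a negative difference. None of them was called by limma, while DESeq2 called Rpl6 (adjusted p = 0.00649), Rpl32 (adjusted p = 0.00761) and Lman1 (adjusted p = 0.00761). Rpl32 had 148, 142 and 140 in KO-labelled LD, against 265, 400 and 262 in UT libraries, and 212, 288 and 244 in WT-labelled LD, against 149, 150 and 170 in UT libraries (difference -1.73 ± 0.37, adjusted p = 0.53, limma). The groups were apart in both labels and in opposite order. On the positive side stood Oscp1, Chac1, a glutathione-degrading enzyme, Rab11fip5, Slc25a2, a mitochondrial carrier, and Siglec5, at differences from 1.64 to 2.18. Siglec5 is here an older symbol of Siglecf, an inhibitory sialic acid receptor on the eosinophil, basophil and mast cell list. None of these genes was called by limma, and DESeq2 called Oscp1 (adjusted p = 0.022). Oscp1 had 262, 155 and 225 in KO-labelled LD, against 146, 145 and 113 in UT libraries, and 109, 155 and 90.9 in WT-labelled LD, against 330, 316 and 237 in UT libraries (1.97 ± 0.43, adjusted p = 0.53, limma).

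**Figure D5:**
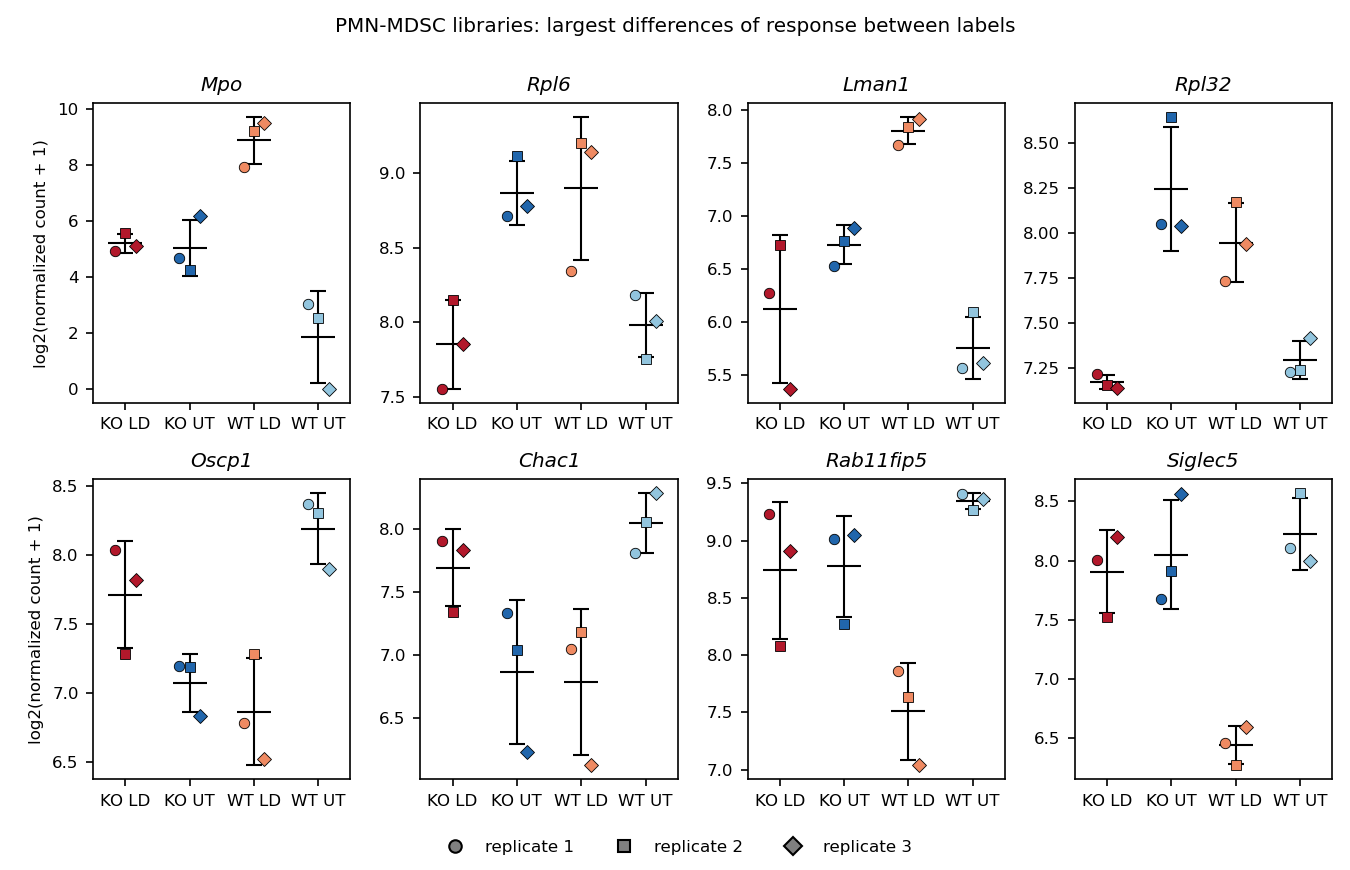
Normalized counts, as log2(count + 1), of 8 of the 10 genes named for a difference between the KO-labelled and WT-labelled responses, in each PMN-MDSC library; dash and bar are mean ± SD of 3. Mpo is high in the WT LD libraries and level between the KO groups, but no gene passed the adjusted threshold in limma.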

How the data were processed

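RNA of sorted spleen PMN-MDSCs was sequenced in 12 of the 24 libraries, 3 a group. The deposited values are a signal, gene counts scaled by a size factor of each library. The submitters' processing notes list STAR 2.5.3a, HTSeq 0.6.1, mm10 and DESeq2; whether strand was used is not given in the sources used here. All values (100%) were whole multiples of 1 read (tolerance 0.001 reads), so reads were recovered.

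Genes with at least 10 normalized counts in 3 or more of the 6 KO-labelled libraries were tested with limma 3.58.1 (R 4.3.3, trend) on log2(normalized count + 1), which understates changes of low genes, with a mean for each of 4 groups. P-values are two-sided, adjusted by Benjamini-Hochberg over 11424 genes and called under 0.05; they measure the spread between libraries, which may be technical where a library is not a separate mouse. Alternatives were pseudocounts of 0.5 and 5, no filter or one at 50, quantile normalization, edgeR 4.0.16 and DESeq2 1.42.0 on recovered reads, a replicate block, array weights, other sets of libraries, and leaving out each library. The fit was tested on simulated data. A gene under 10 in every library of 1 KO-labelled group was tested only through the other group, which fixes its lack of overlap.

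The members, the 32 lists (492 of 494 entries matched) and the rules were chosen with earlier results of these data known. Named are the 12 genes each way with the largest called change, no overlap and a group mean of 100 or more, with open places filled by the smallest p, 5 each way for the difference of responses, 28 key genes and, per list, called or most abundant members. Others were named after their values were seen, and some genes within the rule are not reported here. Ribosomal protein genes have near-identical pseudogene copies and overlapping antisense genes may share reads, so single values there are uncertain.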

Additional observations from a re-analysis of the deposited data

How the results depend on the processing

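The count of 26 lower genes in KO-labelled cells became 25 and 37 with pseudocounts of 0.5 and 5, 26 without a filter, 25 with the stricter one, 38 (3 higher) after quantile normalization, 24 in edgeR and 33 with the 6 KO-labelled libraries alone. It moved to 253 in DESeq2 (91 higher, 162 lower), 182 with array weights and 293 in a fit of all 24 libraries. It was 0 without the shallowest PMN-MDSC libraries, an alternative chosen after seeing the data, and 0 to 23 when 1 library was left out. The shallowest were KO-labelled UT library 1, WT-labelled LD library 1 and WT-labelled UT library 3. All 26 were among the genes called by DESeq2, array weights and all 24 libraries, and each kept a negative change in every alternative run. The interaction count of 0 became 1 with a pseudocount of 5, 1 after quantile normalization, 1 in edgeR, 29 in DESeq2, 9 with array weights and 26 with all 24 libraries, and was 0 to 1 when 1 library was left out. Over single named genes, 4634 recomputed values stayed on their side of the threshold, 67 crossed to called, 129 lost the call and 0 changed direction with a call.

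Replicate numbers showed no pairing of the libraries. Deviations of same-numbered LD and UT libraries correlated at 0.114, 0.00365 and -0.0806, and 1 of 3 correlated best with its own number. From 3 libraries a group this check cannot exclude a pairing. With a replicate block 22 genes were called, and 0 for the interaction. The median change of all genes lay between -0.11 (no filter) and 0.01 (quantile normalization, edgeR), against -0.05. Among the KO-labelled libraries, depth limits low genes most in the shallow UT library, where 1 read is 2.47 normalized counts. WT-labelled LD library 1 was shallower, at 3249647 reads and 3.21 normalized counts a read. WT-labelled UT library 3 had 5509190 reads. Both enter the pooled error and the difference of responses. Changes of a group with 3 libraries as uneven as the LD ones can be missed, and 0 genes called higher does not show that none rose.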

Other observations

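Cytosolic ribosomal protein genes were mostly lower in KO-labelled LD libraries, a set chosen after Rplp1 and Rpl27a were seen among the called genes. Of 76 tested, 2 were called lower (0.228% of all genes), 56 were lower in every LD than in any UT library (9.82% of all genes), 73 had a change under 0, and the median was -0.78. Their summed level was 28035, 28345 and 34935 normalized counts in LD, against 46605, 61390 and 44914 in UT, so the highest LD library was under the lowest UT library. In WT-labelled cells 1 was called higher (4.74% of all genes) and the median was 0.21. The WT-labelled sums were 32660, 43021 and 42879 in LD, against 36742, 35216 and 38373 in UT. The KO-labelled UT libraries thus had the highest sums of the 12. The difference of the responses had a median of -0.98 and was under 0 for 72 of the 76, with 0 called by limma and 42 at an unadjusted p under 0.05 (8.82% of all genes).

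The 8 Gimap genes, GTPases known from lymphocytes and also chosen after values were seen, were all under 0 in KO-labelled cells, with 2 called lower (0.228% of all genes), 7 lower without overlap (9.82%) and a median of -1.92. In WT-labelled cells 5 were called lower (7.46% of all genes) and the median was -1.97.

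Erythroid transcripts differed within the UT group more than between treatments. Of 10 erythroid genes in the table, the 4 globin genes were listed at 0 in all KO-labelled PMN-MDSC libraries. The others summed to 702, 425 and 517 normalized counts in LD, against 171, 1302 and 1119 in UT, with the shallow UT library the lowest of the 6.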
